A study of Sus scrofa with 2 samples.

Results

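KRT5, KRT15, KRT1 and KRT10 are 4 keratins of the living epidermis, all given by name in the feature lists of both libraries. The 4 genes were chosen by symbol among 31908 annotated genes. Their UMIs, the barcoded molecules counted for each cell, were read from both matrices. A further 32 genes had a symbol of KRT and a number. KRT14, the usual type I partner of KRT5, was not found by name, and no unnamed row was taken in its place.

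Keratins build the intermediate filaments of epithelial cells, and each filament needs a type I and a type II chain. In interfollicular epidermis, basal cells on the basement membrane make the type II keratin KRT5 with type I partners, among them KRT15, and cells that move up into the suprabasal layers make the type II keratin KRT1 and the type I keratin KRT10. KRT15 is also known from the hair follicle bulge. Loss of these filaments makes the epidermis fragile.

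Full-thickness dorsal skin of young, healthy male farm pigs was dissociated enzymatically and mechanically, live single cells were sorted by FACS, and 1 library was made from freshly isolated cells and 1 from cells frozen in 90% FBS with 10% DMSO and thawed. About 8000 cells went into each library (10x Genomics Chromium, 3′ kit V3). No label tied the 2 libraries to 1 animal or to different animals. The treatment label was none for the fresh library and frozen for the other, while the protocol text of both described freezing. After the study's maxima for genes, UMIs and mitochondrial share, 2775 of 4379 fresh and 4223 of 4860 cryopreserved barcodes were kept, with medians of 11017 and 7945 UMIs per cell, and 5 of the kept barcodes occurred in both libraries. With 1 library per condition no difference between conditions could be tested. Cells of 1 library are not replicates, and the 95% intervals (exact Poisson for levels, exact binomial for shares) cover counting error only.

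Cells were clustered with every gene that carries a keratin symbol kept out of the clustering features, and no cluster took its name from a keratin. The marker list for Merkel cells included KRT20, but no cluster was given that name. Of 24 clusters, 5 were called keratinocyte-like. All 10 measured keratinocyte markers, desmosome and epithelial genes such as DSP, PERP and CDH1, passed in each of these 5. They held 530 fresh cells (19.1%) and 1058 cryopreserved cells (25.1%), with medians of 14856.5 and 9697 UMIs.

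The 2 type II genes and the 2 type I genes lie on 2 chromosomes of the Sscrofa11.1 build. KRT5 (ENSSSCG00000000248) covers chr5:17862047-17868397 and KRT1 (ENSSSCG00000000251) chr5:18012922-18018582, both on the minus strand and each with 9 exons. KRT15 (ENSSSCG00000017444) covers chr12:21124605-21130247 with 9 exons and KRT10 (ENSSSCG00000028522) chr12:21641263-21645642 with 8 exons, both on the plus strand. The 250 bases before the RefSeq gene start are shown for KRT5 and KRT10, the most abundant basal and the most abundant suprabasal member. Capitals mark matches, on either strand, to a TATA box (TATAAA), to an AP-1 motif (TGA and TCA around any 1 base), to an AP-2 motif (GCC and GGC around any 3 bases) and to a GC box (GGGCGG).
KRT5, chr5:17868398-17868647, minus strand: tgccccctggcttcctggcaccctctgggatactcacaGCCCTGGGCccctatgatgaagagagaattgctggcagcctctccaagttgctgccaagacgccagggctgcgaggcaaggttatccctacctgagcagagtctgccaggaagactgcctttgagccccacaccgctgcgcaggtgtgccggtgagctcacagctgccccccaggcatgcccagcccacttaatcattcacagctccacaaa
KRT10, chr12:21641013-21641262, plus strand: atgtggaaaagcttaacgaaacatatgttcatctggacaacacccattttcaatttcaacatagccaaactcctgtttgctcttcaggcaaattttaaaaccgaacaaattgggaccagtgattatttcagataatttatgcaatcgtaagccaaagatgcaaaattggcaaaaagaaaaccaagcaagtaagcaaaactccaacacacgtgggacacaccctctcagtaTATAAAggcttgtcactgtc
KRT5 held 1 AP-2 match, between 212 and 204 bases before the start. KRT10 held 1 TATA box match, between 20 and 15 bases before the start. Neither window held an AP-1 or a GC box match. Among the 250-base windows of 20664 protein-coding genes, 10.4% held the TATA box, 5.48% the AP-1 motif, 21.5% the AP-2 motif and 44.4% the GC box. These matches describe the letters only.

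Keratinocyte-like cells held nearly all of the 4 keratins. Levels are given as CPM, the UMIs of a gene per 1000000 UMIs of the class. A 3′ library counts molecules at their ends, so CPM of different genes can be set side by side without a length correction. KRT5, the basal type II chain, was the most abundant, at 15827 CPM (95% interval 15739 to 15916) in fresh and 14739 CPM (14666 to 14812) in cryopreserved keratinocyte-like cells. KRT10 followed at 8464 CPM (8399 to 8529) and 6691 CPM (6642 to 6739.9). KRT1 stood at 4633 CPM (4585 to 4681) and 5972 CPM (5925 to 6018). KRT15 was the lowest, at 1462 CPM (1435 to 1489) and 1188 CPM (1167 to 1209). The order KRT5, KRT10, KRT1, KRT15 was the same in both libraries, with no overlap between neighbouring counting intervals. Together the 4 genes made 30385 CPM in fresh and 28589 CPM in cryopreserved keratinocyte-like cells. Against all other named classes pooled, the fresh level was 521-fold higher for KRT5, 598-fold for KRT15, 672-fold for KRT1 and 341-fold for KRT10. In the cryopreserved library these folds were 264, 205, 310 and 177.

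**Figure D1:**
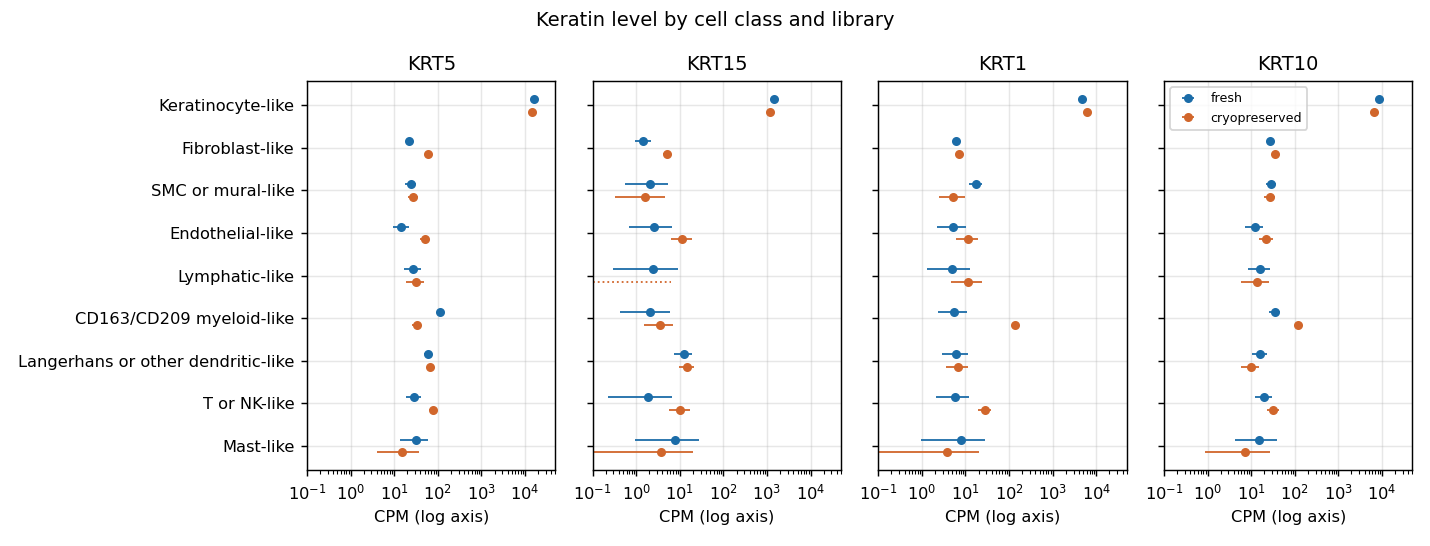
Level of each keratin (CPM, log axis) in 9 cell classes. Points are the fresh (blue) and cryopreserved (orange) libraries, bars are 95% exact Poisson intervals, and a dotted line without a point is the interval of a class with 0 UMIs. In all 4 panels both keratinocyte-like points lie at or above 1188 CPM, and no other class exceeds 134 CPM.

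The levels of KRT1 and KRT10 came from few cells, while KRT5 was spread over nearly all. For KRT5, the median cell held 13319.9 CPM in the fresh library, and the middle of the cells (25th to 75th percentile) ranged from 5980.0 to 21392 CPM. The median cryopreserved cell held 12263 CPM of KRT5, with a range of 6002 to 19473 CPM. For KRT15, the median cells held 425 and 346 CPM. For KRT1, the median cell of both libraries held none, and the 75th percentile was 1202 CPM in fresh and 2076 CPM in cryopreserved cells. For KRT10, the median cells held 222 and 246 CPM, and the richest cells reached 104771 and 85259 CPM.

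Among the keratinocyte-like clusters, the 2 basal keratins and the 2 suprabasal keratins were highest in different cells. Markers were scored against the median cluster of all classes, and both the basal and the suprabasal list passed widely in each keratinocyte-like cluster. The mean log2 fold over the median cluster was 5.40 for the basal and 3.62 for the suprabasal list in cluster 10. In cluster 13 these means were 3.21 and 7.32. In clusters 2, 9 and 19 the basal means were 5.54, 5.02 and 5.11, and the suprabasal means 6.08, 4.43 and 5.24. Cluster 10 was thus set apart by its lower suprabasal mean and not by its basal mean. In cluster 10, 10 of 10 basal markers (hemidesmosome and basement membrane genes among them) and 5 of 10 suprabasal markers passed. Cluster 10 had the highest KRT5, at 24939 CPM in fresh and 23470.1 CPM in cryopreserved cells. It also had the highest KRT15, at 3328 and 2651 CPM. KRT1 was lowest there, at 27.7 CPM (20.3 to 36.8) in fresh and 423 CPM (395 to 452) in cryopreserved cells. KRT10 was low but measurable in this cluster, at 299 CPM (274 to 327) and 671 CPM (636 to 708).

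Cluster 13, in which 9 of 10 suprabasal and 8 of 10 basal markers passed, held the most KRT1 and KRT10. KRT1 was at 19402 CPM in fresh and 25459.8 CPM in cryopreserved cells, and KRT10 at 33742 and 27908 CPM. Here the 4 keratins together made 67265 and 66012 CPM. KRT15 was at 261 and 327 CPM, of which the 5 richest cells held 89.8% and 76.1%. KRT5 remained abundant on average, at 13859.5 and 12318 CPM, but its cells differed widely. The 25th percentile of KRT5 in this cluster was 278 CPM in fresh and 690.0 CPM in cryopreserved cells, and the 75th percentile 23983 and 23304 CPM.

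The other 3 clusters held all 4 keratins. Cluster 2, led by CCL27 and SERPINB2, held KRT5 at 13874 and 12748 CPM, KRT15 at 1248 and 865 CPM, KRT1 at 2529 and 4017 CPM and KRT10 at 5028 and 4414 CPM, in fresh and cryopreserved cells in turn. Cluster 9, whose leading genes included DSG3 and MACC1, had the least KRT5, at 10292 and 11824 CPM. Its KRT1 was at 166 and 588 CPM, with 88.6% and 51.8% of the UMIs in its 5 richest cells. Cluster 19, in which all 6 measured division markers passed, held KRT5 at 17394 and 15633 CPM. It held 23 fresh cells, and their 5 richest cells held 82.0% of the KRT1 UMIs.

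Co-expression was counted after every cell had been thinned to 2000 UMIs, so that the deeper fresh cells had no more chance to show a keratin. This left out 6 fresh and 18 cryopreserved cells of lower depth. KRT5 had at least 1 UMI in 92.4% of fresh (89.8 to 94.5%) and 96.8% of cryopreserved cells (95.6 to 97.8%). KRT15 was seen in 51.5% and 48.7%, KRT1 in 31.7% and 35.6%, and KRT10 in 47.9% and 52.4%. Without thinning these shares were 97.4% and 98.2% for KRT5, 62.8% and 60.0% for KRT15, 44.5% and 47.0% for KRT1, and 74.7% and 75.7% for KRT10. In T or NK-like cells, a class that should lack keratins (medians of 6512 and 4820 UMIs), the thinned shares were 6.21% and 9.43% for KRT5, 0.690% and 1.23% for KRT15, 1.38% and 1.23% for KRT1, and 4.14% and 2.05% for KRT10. All 4 shares in keratinocyte-like cells were above these levels in both libraries.

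KRT1 and KRT10, which form a filament pair, occurred in the same cells. Both were seen in 28.2% of fresh (24.4 to 32.3%) and 33.0% of cryopreserved cells, 1.86 and 1.77 times the product of their single shares. Of the KRT1-positive cells, 89.2% and 92.7% also held KRT10. The reverse was less complete, since 59.0% and 62.9% of the KRT10-positive cells held KRT1. KRT5 with KRT10 alone made 6.87% and 8.65% of cells, and KRT5 with KRT15 and KRT10 made 12.4% and 10.8%.

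Over all keratinocyte-like cells, KRT15 and KRT1 occurred together less often than the product of their single shares. A total of 27 of 524 fresh cells (5.15%, 3.42 to 7.41%) and 52 of 1040 cryopreserved cells (5.0%, 3.76 to 6.51%) held both, 0.316 and 0.289 times that product. Without thinning 16.0% and 16.5% held both, 0.573 and 0.587 times the product, and when 2 UMIs of each gene were needed after thinning, 0.954% and 1.54% did. For KRT15 with KRT10 the ratio to the product was 0.619 and 0.554 after thinning and 0.912 and 0.869 without it. Every KRT15-positive fresh cell and 99.8% of the KRT15-positive cryopreserved cells also held KRT5. Since KRT5 was in nearly all cells, KRT5 with KRT15 was only 1.08 and 1.03 times the product. Within clusters, the thinned ratio for KRT15 with KRT1 was 0.198 and 0.308 in cluster 2 and 0.236 and 0.241 in cluster 9. It was 0 and 0.569 in cluster 19 and 0.891 and 0.461 in cluster 10. In cluster 13 it was 1.04 and 0.775, with 7 fresh and 11 cryopreserved cells holding both. In cluster 13, 96.4% of fresh and 94.7% of cryopreserved cells held KRT1, which left this ratio little room to fall. In cluster 10 only 4 fresh cells held KRT1. The ratio thus cannot show whether the shortfall was absent from cluster 13 or from fresh cluster 10. Thinning was a random draw, made once for all keratinocyte-like cells and anew for each cluster. In fresh cells the cluster draws gave 6, 1, 3, 7 and 0 cells with both in clusters 2, 9, 10, 13 and 19. Together these are fewer than the 27 of the joint draw, and the intervals do not cover this spread between draws.

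The full patterns of the 4 genes were then counted. KRT5 with KRT15 and neither suprabasal keratin was the most frequent, at 34.0% of fresh and 32.8% of cryopreserved cells. KRT5 with KRT1 and KRT10 but no KRT15 came next, at 20.4% (17.0 to 24.1%) and 26.5% (23.9 to 29.3%). KRT5 alone made 12.6% and 12.1%. KRT1 with KRT10 and no KRT5 made 4.96% (3.27 to 7.19%) and 3.08% (2.11 to 4.32%). All 4 keratins were seen in 2.86% and 3.37%. None of the 4 was seen in 11 fresh cells (2.10%), against 0 of 1040 cryopreserved cells (exact upper limit 0.354%).

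**Figure D2:**
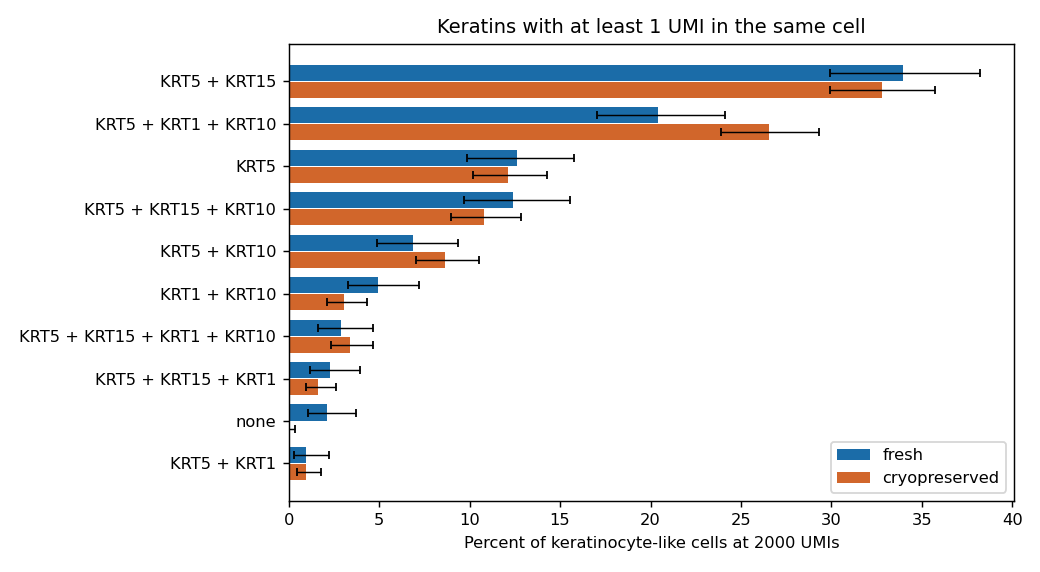
Percent of keratinocyte-like cells, each thinned to 2000 UMIs, with each combination of keratins (at least 1 UMI) in the fresh (blue) and cryopreserved (orange) libraries. Bars are shares with 95% exact binomial intervals, and combinations with a mean share under 0.5% are not drawn. KRT5 with KRT15 leads at 34.0% and 32.8%.

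Across single keratinocyte-like cells the level of KRT1 went with that of KRT10 (Spearman rho of the per-cell share of UMIs 0.73 over 530 fresh and 0.78 over 1058 cryopreserved cells). KRT15 ran against KRT1 (-0.53 and -0.55) and against KRT10 (-0.49 and -0.56). KRT5 and KRT15 were weakly related (0.33 and 0.16). KRT5 stood at -0.11 and -0.14 with KRT1 and at 0.07 and -0.04 with KRT10 (-0.03 and -0.09 after thinning). In cluster 13 alone KRT5 ran against KRT1 (-0.52 and -0.75) and against KRT10 (-0.37 and -0.72). In clusters 9, 10 and 19 KRT5 went with KRT10 (0.54 and 0.30, 0.44 and 0.44, 0.42 and 0.32). After thinning these values were 0.32 and 0.26, 0.29 and 0.33, and 0.38 and 0.40. KRT5 with KRT15 was at 0.10 and -0.34 in cluster 9. KRT1 with KRT10 was at 0.73 and 0.84 in cluster 2, 0.88 and 0.89 in cluster 13, and 0.68 and 0.51 in cluster 19. This pair was weaker in cluster 9 (0.36 and 0.39) and cluster 10 (0.08 and 0.42). KRT15 with KRT1 was at -0.56 and -0.66 in cluster 2, -0.19 and -0.32 in cluster 9, and -0.09 and -0.20 in cluster 10. It was at -0.31 in both libraries in cluster 13, and at -0.55 and -0.19 in cluster 19. The cells of a library share its preparation and depth, and each keratin's share of a cell's UMIs limits that of the others, so these values are descriptions.

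The balance between the pairs was read as the share of KRT1 and KRT10 among the UMIs of the 4 keratins in a cell, for cells with at least 20 such UMIs (499 fresh and 1025 cryopreserved). Under 10% lay 69.1% of fresh (64.9 to 73.2%) and 67.9% of cryopreserved cells (64.9 to 70.8%), and over 90% lay 10.2% (7.70 to 13.2%) and 10.4% (8.63 to 12.5%). From 10 to 50% lay 11.4% and 13.7% of cells, and from 50 to 90% 9.22% and 8.0%. The median share was 1.78% in fresh and 2.63% in cryopreserved cells. Only 6 and 11 cells lay within 1 point of the 10% limit, and 15 in each library within 5 points of the 50% limit. In cluster 10, 99.1% of fresh and 92.2% of cryopreserved cells were under 10%, and in cluster 13 the medians were 86.2% and 86.5%.

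**Figure D3:**
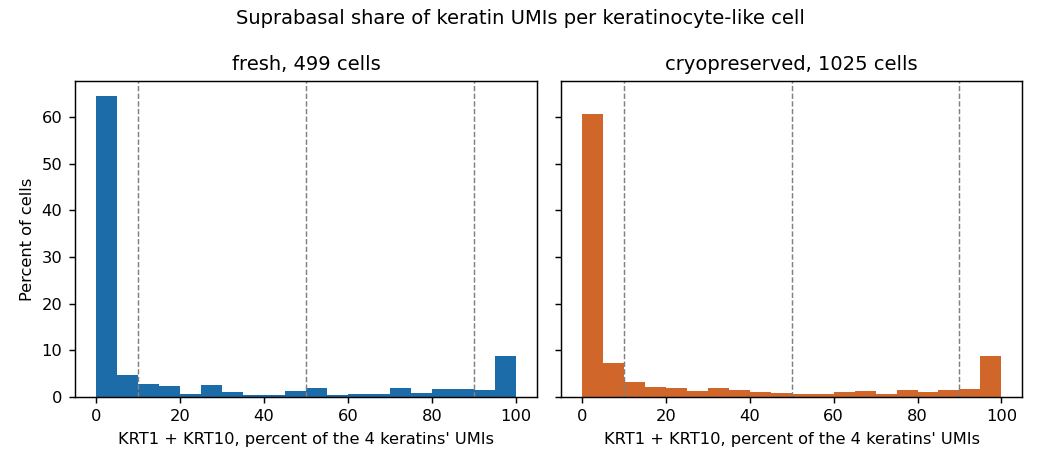
Distribution of the share of KRT1 and KRT10 among the UMIs of the 4 keratins per keratinocyte-like cell (x axis, percent, bins of 5 points) as percent of cells (y axis), for 499 fresh and 1025 cryopreserved cells. Dashed lines mark 10, 50 and 90%. Both histograms have their tallest bar at the low end and a second, smaller peak above 90%.

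Gene groups that took no part in this scale differed between its ends. Cells over 50% (97 fresh, 189 cryopreserved) were compared with cells under 10% (345 and 696), and a gene was counted when its CPM differed at least 2-fold in both libraries. The scale itself was drawn from the same cells, so the counts are descriptions. Of 7286 genes with at least 200 UMIs, 2.51% were higher and 8.81% lower in the cells over 50%. The UMI minimum was set on pooled cells, so a gene could pass through the end of the scale where it was high. The median log2 difference of all genes but the 4 keratins was -0.22 in fresh and -0.15 in cryopreserved cells, against which the lists are set. Cells over 90% were also deeper than cells under 10%, with medians of 18793 against 14448 UMIs in fresh and 11369 against 9102.5 UMIs in cryopreserved cells, and the part of depth in these differences was not tested.

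Genes of the hemidesmosome and basement membrane, which anchor basal cells, were lower in 9 of 10 cases (median log2 difference -2.52 in fresh and -2.04 in cryopreserved cells). COL17A1, a transmembrane collagen of the hemidesmosome, stood at 1599 CPM under 10%, 551.8 CPM from 10 to 50%, 157 CPM from 50 to 90% and 17.7 CPM over 90% in fresh cells. In cryopreserved cells its levels were 1432, 667, 220.2 and 33.4 CPM. ITGA6, the alpha chain of the hemidesmosomal integrin, stood at 940.3 CPM under 10% and 81.7 CPM over 90% in fresh cells, and at 761 and 165 CPM in cryopreserved cells. LAMA3, a chain of laminin 332, stood at 1505 and 259.6 CPM in fresh and 865 and 234 CPM in cryopreserved cells.

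Of 7 basal regulators, 4 were lower and none higher. They were TP63, ITGB1, SOX9 and CAV1, of which the last 3 are named here after their values were seen. CAV1 was at 0 CPM over 50% in both libraries (19.6 and 19.7 CPM under 10%), so it passed the UMI minimum only through the other cells. TP63, the transcription factor that maintains stratified epithelium, stood at 1228 CPM under 10% and 321 CPM over 90% in fresh cells, and at 942 and 368 CPM in cryopreserved cells. EGFR, the epidermal growth factor receptor, did not reach 2-fold (408 and 326 CPM in fresh cells). TRIM29 was at 259.6 and 490.4 CPM.

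All 7 late differentiation genes with at least 200 UMIs, of 14 listed, were higher in the cells over 50% (median log2 difference 3.84 in fresh and 3.05 in cryopreserved cells). For CALML5, named here after its values were seen, the UMI minimum was met almost only through the higher cells. It was at 0.62 and 0.74 CPM under 10% against 53.5 and 117 CPM over 50%, in fresh and cryopreserved cells in turn. KRTDAP, a secreted protein of differentiating keratinocytes, was at 143 CPM under 10% and 12183 CPM over 90% in fresh cells, and at 213 and 12701 CPM in cryopreserved cells. LY6D, a surface protein, was already at 1087 CPM under 10% and reached 4966 CPM over 90% in fresh cells. SPRP, a cornified envelope protein, was at 14.7 and 965 CPM in fresh cells, and at 58.3 and 962 CPM in cryopreserved cells.

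Of 10 desmosome genes with at least 200 UMIs, 4 were higher and none lower. They were PERP, PKP1, DSG1 and DSC1. PERP, a desmosome-associated membrane protein, was at 2200.0 CPM under 10% and 5738 CPM over 90% in fresh cells, and at 2186 and 5876 CPM in cryopreserved cells. DSP, the plaque protein that binds keratin filaments, was at 1184 and 2200.2 CPM in fresh cells, and DSC2 at 959 and 1124 CPM. Of 9 differentiation regulators with at least 200 UMIs, 5 were higher, among them KLF4, a factor of barrier formation (372 and 1004 CPM in fresh cells), and HES1, a Notch target (113 and 295 CPM).

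Division genes were lower in 5 of 7 cases. In fresh cells over 50%, UBE2C was at 0.594 CPM, CDK1 at 2.97 CPM and CDC20 and BIRC5 at 4.16 CPM, so these fresh values rest on few UMIs. The fresh log2 differences of BIRC5 (-1.03) and CDK1 (-1.09) were just past the 2-fold limit. UBE2C, CDK1 and BIRC5 are named here after their values were seen. The 10 genes found had summed levels of 142, 274, 95.2 and 65.2 CPM over the 4 ranges of rising share in fresh cells and 331, 284, 205 and 66.0 CPM in cryopreserved cells. Only 4 of the 32 other keratin symbols had at least 200 UMIs. KRT2, a keratin of the upper spinous layer, was at 37.2 and 93.9 CPM under 10% and over 90% in fresh cells. KRT3 was the 1 of these 4 that was counted as higher, and a single cell held 59.4% of its fresh and 82.5% of its cryopreserved UMIs in keratinocyte-like cells. KRT79 was as uneven in fresh cells, where 1 cell held 95.8% of its UMIs. Sequence is shared between keratin genes, and reads that could not be placed in 1 gene would be missing from these counts.

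The 4 keratins were then read along an axis that used none of them. Keratinocyte-like cells were ranked within each library by the summed CPM of the 11 late differentiation genes found, and divided into 5 groups of 106 fresh and 211 or 212 cryopreserved cells, numbered from the lowest sum. LY6D made 41.9% of the list's UMIs in fresh and 34.9% in cryopreserved cells. It was also among the leading genes of cluster 10, which had the highest KRT5 and KRT15. KRT5 was higher in each of groups 2 to 4 than in the one before, and groups 1 to 4 stood at 7601, 12828, 19153 and 25641 CPM in fresh cells, and group 5 at 12539 CPM. In cryopreserved cells KRT5 was at 9216, 12405, 18289, 22096 and 10209.6 CPM. KRT5 was thus highest in group 4 of both libraries.

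KRT15 was highest 1 step earlier, in group 3. Its fresh levels were 1248, 1992, 2533, 1597 and 267 CPM, and its cryopreserved levels 1558, 1597, 2029, 1064 and 60.2 CPM. KRT1 had the steepest course, at 11.8, 32.0, 181, 1317 and 17402 CPM in fresh and 16.0, 28.8, 185, 2349.7 and 22613 CPM in cryopreserved cells. KRT10 ran from 75.8 CPM through 143, 395 and 2189 to 31829 CPM in fresh cells, and from 102 CPM through 142, 431 and 2617 to 25028 CPM in cryopreserved cells. In group 1 KRT10 lay above its level in the other named classes (24.8 CPM in fresh, 37.8 CPM in cryopreserved cells), with intervals of 61.4 to 92.6 and 86.9 to 118 CPM. KRT1 did not stand clear of that background in this ranking when all cells of the other classes were counted. Its interval in group 1 was 6.63 to 19.5 CPM in fresh cells against 5.89 to 8.01 CPM in the other classes. In cryopreserved cells it was 10.6 to 23.3 CPM against 17.6 to 21.0 CPM. Few cells set this cryopreserved background, as 188 of its 501 KRT1 UMIs remained without its 5 richest cells. Under other ways of processing the background was as low as 5.50 CPM, below the group 1 interval.

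A ranking by the 10 genes other than LY6D, chosen after the data had been seen, changed the lower groups. In it 147 of 530 fresh and 318 of 1058 cryopreserved cells had none of these UMIs, so the limit between groups 1 and 2 fell among tied cells. KRT15 then stood at 2306, 2716, 1874, 793 and 114 CPM in fresh cells and at 2125, 1957, 1664, 677 and 42.0 CPM in cryopreserved cells, so that its highest level lay in group 2 or group 1 and no longer in group 3. KRT5 was again highest in group 4, at 20523 and 19606 CPM, but it no longer rose at each step, with 14695, 17420.5 and 15929 CPM in groups 1 to 3 of the fresh library. KRT1 and KRT10 were again highest in group 5, at 17803 and 32082 CPM in fresh and 22376 and 24620.5 CPM in cryopreserved cells. KRT1 in group 1 was then at 11.3 CPM in fresh cells (6.33 to 18.7) and at 33.2 CPM in cryopreserved cells (25.04 to 43.0), the latter above the other classes.

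**Figure D4:**
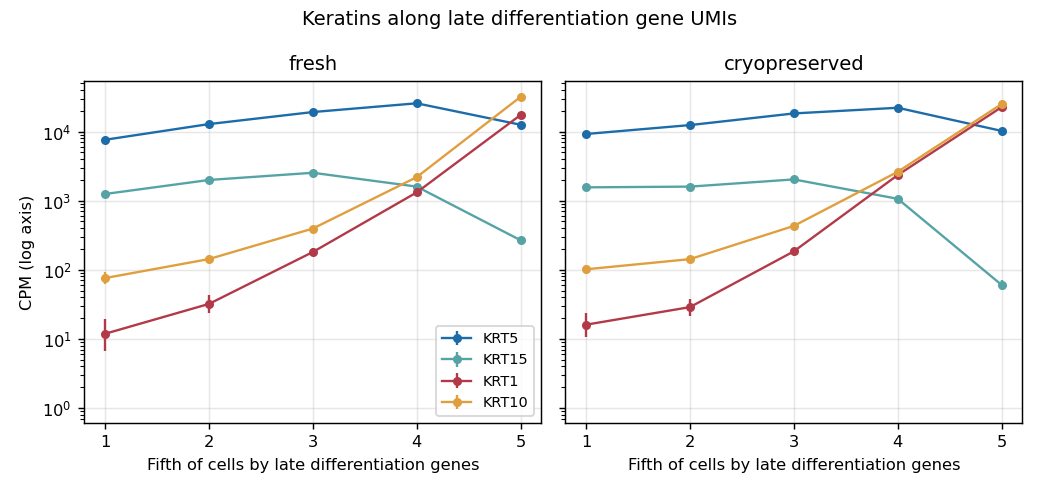
CPM (log axis) of KRT5, KRT15, KRT1 and KRT10 in 5 nearly equal groups of keratinocyte-like cells ranked by late differentiation genes, for the fresh and the cryopreserved library, with 95% exact Poisson bars that are mostly smaller than the points. With LY6D in the ranking, as plotted, KRT15 is highest in group 3 and KRT5 in group 4, while KRT1 and KRT10 are highest in group 5.

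Likeness of pattern was measured as Pearson's r of log2(CPM + 1) over the 24 clusters in each library, taking the lower of both values, among 11692 genes with at least 200 UMIs. Clusters of 1 library share cells' preparation, and these are descriptions across clusters. KRT5 was most like the unnamed gene ENSSSCG00000017448 (0.99 and 0.98), followed by PKP3, ESRP2, KLC3 and PROM2. KRT15 was most like GABRA2 (0.95 and 0.93), LAMB3 and PLCH2. KRT1 was most like RHOV (0.91 and 0.94), SBSN, KRT10 and LYPD6B. KRT10 was most like PKP1 (0.91 and 0.92), ENSSSCG00000024281, DSC1, KRT1 and DSG1. Each of the 2 suprabasal keratins was among the 5 genes nearest to the other, at 0.93 in fresh and 0.89 in cryopreserved clusters. KRT5 and KRT15 stood at 0.93 and 0.88, which did not place either among the nearest 5 of the other. Pairs of a basal with a suprabasal keratin were also positive. KRT5 stood at 0.80 and 0.84 with KRT1 and at 0.83 and 0.85 with KRT10. KRT15 stood at 0.77 and 0.64 with KRT1 and at 0.80 and 0.60 with KRT10. Most of the 24 clusters were not keratinocyte-like, so r also reflects keratinocyte-like against other clusters.

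The study asked whether cryopreservation keeps gene expression. In keratinocyte-like cells the ratio of the cryopreserved to the fresh CPM was 0.931 for KRT5 (0.924 to 0.938), 0.813 for KRT15 (0.792 to 0.834), 1.29 for KRT1 (1.27 to 1.31) and 0.791 for KRT10 (0.782 to 0.799). None of the 4 was 2-fold apart, as 0.889% of 7758 genes with at least 200 UMIs were (1.84% with a minimum of 50 UMIs and 1.99% with a minimum of 1). None reached a log2 size of 0.5 either, as 7.75% of those genes did. The log2 ratios of KRT15, KRT1 and KRT10 (-0.30, 0.37 and -0.34) were larger in size than the median of 0.17 over the genes, and that of KRT5 (-0.10) was smaller. The summed 4 keratins had a ratio of 0.941.

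KRT1 and KRT10, the 2 suprabasal keratins, lay on opposite sides of 1 in all keratinocyte-like cells together and in clusters 2 and 13, and on the same side in clusters 9, 10 and 19. The cryopreserved library held 1.12 KRT10 UMIs for each KRT1 UMI and the fresh library 1.83. Without the 5 richest cells KRT10 made 64.3% of the UMIs of both genes in fresh and 52.6% in cryopreserved cells, against 64.6% and 52.8% with them. Among cells with at least 20 UMIs of both genes together and at least 1 of KRT1, the median ratio was 1.87 over 155 fresh and 1.12 over 325 cryopreserved cells. KRT10 was above KRT1 in 81.9% of these fresh and 60.9% of these cryopreserved cells. The 10th percentile of the log2 ratio was close in both libraries (-0.79 and -0.80), and the 75th percentile was 1.38 in fresh and 0.67 in cryopreserved cells. In cluster 13 alone the medians were 1.71 over 84 and 1.11 over 148 cells, and in cluster 2 they were 1.87 over 56 and 1.14 over 126 cells. For KRT5 over KRT15 the medians were 8.81 over 322 fresh and 8.62 over 615 cryopreserved cells. These were the cells with a KRT15 UMI among 461 and 945 cells with at least 20 UMIs of both genes together. In the summed UMIs of all keratinocyte-like cells KRT5 over KRT15 was 10.8 in fresh and 12.4 in cryopreserved cells. Whether the animal, the freezing or the library preparation moved with the ratio of KRT10 to KRT1 cannot be told apart with 1 library each.

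**Figure D5:**
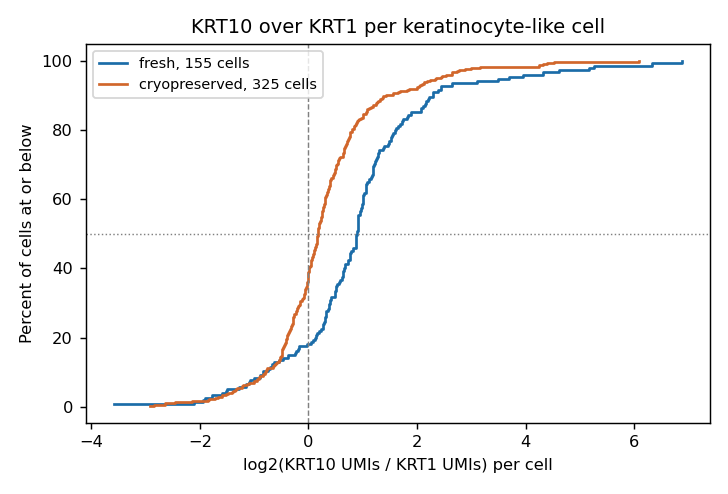
Cumulative percent of keratinocyte-like cells (y axis) by the log2 ratio of KRT10 to KRT1 UMIs in the cell (x axis), for 155 fresh (blue) and 325 cryopreserved (orange) cells with at least 20 UMIs of both genes together and at least 1 of KRT1. The dashed line marks equal UMIs, and the curves cross 50% at 0.90 and 0.17.

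Within clusters the ratio of KRT5 ranged from 0.889 in cluster 13 to 1.15 in cluster 9. KRT15 ranged from 0.693 in cluster 2 to 3.34 in cluster 19, which held 23 fresh and 71 cryopreserved cells. The fresh cells of cluster 19 had 81 KRT15 UMIs, of which the 5 richest cells held 91.4%. KRT1 was 1.31 in cluster 13 and 1.59 in cluster 2, where it was abundant. It reached 15.3 (11.4 to 20.9) in cluster 10 and 3.55 in cluster 9, and was 0.489 in cluster 19. KRT10 was 0.827 in cluster 13, 0.878 in cluster 2, 1.54 in cluster 9, 2.24 in cluster 10 and 0.313 in cluster 19. In cluster 19 the 5 richest fresh cells held 81.6% of the KRT10 UMIs. In cluster 10 the 5 richest cryopreserved cells held 63.9% of the KRT1 UMIs, and the median cell of both libraries held none. There the share of cells with KRT1 after thinning was 3.33% in fresh and 13.8% in cryopreserved cells.

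Other lineages held keratin UMIs at a low level, of which rich cells held a larger part in the cryopreserved than in the fresh library. Over all other named classes, KRT5 was at 30.4 CPM (28.2 to 32.6) in fresh and 55.9 CPM (53.0 to 58.8) in cryopreserved cells. KRT10 was at 24.8 and 37.8 CPM, KRT1 at 6.89 and 19.3 CPM, and KRT15 at 2.45 and 5.81 CPM. In each library the 20 richest cells were set apart. They held 23.6% of the 4 keratins' UMIs among 2242 fresh cells and 53.9% among 3143 cryopreserved cells. A doublet score in the top 6% of the library by Scrublet was given to 3 of these cells in the fresh and to 14 in the other library. Without the 5 richest cells of each class, the summed level of the 4 keratins was 49.1 CPM in fresh and 60.0 CPM in cryopreserved cells. By class it then ran from 28.0 to 53.5 CPM in fresh and from 7.92 to 67.6 CPM in cryopreserved cells.

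Single rich cells set part of the order of the classes. In the fresh library CD163/CD209 myeloid-like cells came second for KRT5, at 112 CPM, with 113 of 166 UMIs in 1 cell, and Langerhans or other dendritic-like cells next, at 59.0 CPM. The counting intervals of neighbours below these overlapped down to endothelial-like cells at 14.7 CPM. In the cryopreserved library T or NK-like cells came second for KRT5, at 76.8 CPM, and 28.96 CPM without their 5 richest cells. For KRT15, all neighbours after keratinocyte-like cells overlapped in both libraries, from 12.2 to 1.46 CPM in fresh and from 14.7 CPM to 0 UMIs in cryopreserved cells, where 135 lymphatic-like cells had none (up to 6.16 CPM).

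For KRT1, fresh smooth muscle or mural-like cells came second at 17.2 CPM, with 18 of 33 UMIs in 1 cell. Cryopreserved CD163/CD209 myeloid-like cells came second at 134 CPM, of which 289 of 300 UMIs lay in 1 cell that also gave this class its KRT10 level of 117 CPM (203 of 263 UMIs in the richest cell). Without the 5 richest cells these levels were 2.73 CPM for KRT1 and 10.9 CPM for KRT10. For KRT10, the fresh order ran from 34.4 CPM in CD163/CD209 myeloid-like cells to 12.1 CPM in endothelial-like cells with overlap between all neighbours.

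KRT10 made a larger part of the suprabasal keratin UMIs in the other lineages pooled than in keratinocyte-like cells. KRT10 made 64.6% of the KRT10 and KRT1 UMIs in fresh and 52.8% in cryopreserved keratinocyte-like cells. In fibroblast-like cells, the largest other class, it made 81.1% (77.4 to 84.4%) and 82.8% (79.7 to 85.5%). Over all other named classes it made 78.3% and 66.2%, and 79.0% and 78.9% without the 5 richest cells. Fibroblast-like cells held 420 of the 609 fresh and 567 of the 982 cryopreserved KRT10 UMIs of this pool. Among the named classes, the share was below that of keratinocyte-like cells only in fresh smooth muscle or mural-like cells (62.5%) and cryopreserved CD163/CD209 myeloid-like cells (46.7%). Many of the smaller classes held few UMIs of both genes, with wide intervals. The source of these UMIs was not tested.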

How the data were processed

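Gene by cell UMI counts of 1 fresh and 1 cryopreserved library were deposited by the authors, who per the labels and the study's methods made them with Cell Ranger 4.0.0 and STAR 2.5.1b against the Ensembl annotation of Sscrofa11.1; the counts were not normalized. The 4 keratins and all gene lists were chosen with earlier results of these data known. No sample column outside the 2 libraries was used.

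Barcodes with at most 4500 genes, 30000 UMIs and 10% mitochondrial UMIs were kept, as in the study. Doublets had been gated out by scatter in the sort, and the gene and UMI maxima were the only further filter; Scrublet (scanpy 1.11.5), which marked 0.108% of fresh and 0.829% of cryopreserved cells, was an alternative. Cells were clustered in R 4.3.3 with Seurat 5.3.0 (2000 variable features per library without 37 keratin genes, anchors, 30 dimensions, Louvain resolution 0.8). A cluster was named from a marker list when at least 3 markers had UMIs in 10% of its cells and 2 times the median cluster's CPM, taking the list with the highest mean log2 fold; shallow clusters without own markers among their leading 10 genes stayed unnamed (25 cells). This scoring rule was set after a first look at the clusters. Unnamed annotation rows, which may include keratins, stayed among the features.

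CPM were computed from summed counts per class. Thinning drew 2000 UMIs per cell without replacement, once for each set of cells. Fold changes between gene groups used CPM + 1. Named genes were the 4 keratins, the 5 genes most like each, and the 3 members of each list with the most UMIs in keratinocyte-like cells; a few items under this rule, and 2 promoter windows, are not reported here. No gene was tested, since there was 1 library per condition. The ratio, thinning, intervals and likeness were tested on simulated data. Promoter windows and gene coordinates came from RefSeq on Sscrofa11.1. Alternatives covered the filters, clustering, doublets, thinning depth, UMI minima, a ranking without LY6D (added after seeing the data) and scaling by edgeR 4.0.16 and DESeq2 1.42.0 factors.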

Additional observations from a re-analysis of the deposited data

How the results depend on the processing

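Of 98 alternative values for the main results, 63 stayed within the counting interval of the reported value (for counts of genes, close to the reported count), 34 moved outside it and 1 changed sign. Of the further values, 232 stayed, 157 moved and 1 changed sign. Allowing keratins among the features and resolutions of 0.4 and 1.2 gave the same 530 and 1058 keratinocyte-like cells. The values of keratinocyte-like cells could not move under these settings, yet they are counted among those that stayed. Because the intervals cover counting error only, small moves of abundant genes count. The summed CPM of the 4 keratins in fresh and cryopreserved keratinocyte-like cells was 30062 and 28154.5 with all barcodes, 28004 and 28064 with no mitochondrial limit, 30637.5 and 28942 without the 6% highest Scrublet scores, and 31859 and 30017 without mitochondrial genes in the total. It was 28795 in cryopreserved cells without those Scrublet marked. As mean UMIs per cell, another unit, it was 443 and 288. In other lineages the sum was 200.5 and 252 CPM with all barcodes, 75.7 and 127 with no mitochondrial limit, 54.2 and 63.8 without the 6% highest Scrublet scores, and 49.1 and 60.0 without the 5 richest cells of each class. In cryopreserved cells it was 123 with libraries merged without integration and 91.1 without marked cells. The percent of cells with KRT15 and KRT1 followed the depth, at 1.71 and 2.86 after thinning to 1000 UMIs, 9.38 and 11.12 at 5000 UMIs and 16.0 and 16.5 unthinned. It was 0.954 and 1.54 when 2 UMIs were needed. The log2 ratio of the summed keratins, cryopreserved over fresh, was -0.09 as reported, -0.078 without marked cells, -0.11 with DESeq2 size factors and 0.0031 with no mitochondrial limit, where its sign changed. That of KRT5 also changed sign, to 0.0010, with all barcodes. The genes at least 2-fold apart were 197 with at least 50 UMIs and 388 with no minimum, against 69. With log2(CPM + 10), 9 of the 20 most similar genes were shared. The cause of these moves was not tested. The percent of cells with over 50% KRT1 and KRT10 stayed between 18.6 and 21.1 in fresh and 17.9 and 20.4 in cryopreserved cells under 11 alternatives. No paired analysis was possible because each condition had 1 library, and for the same reason no library could be left out.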
